A study of Mus musculus with 4 samples.

Results

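Marrow myeloma cells of the VQ mouse model were compared with normal marrow plasma cells that carry a high share of Jchain, the transcript of the joining chain that links antibody units into polymers. The sides were chosen cell by cell. A cell of the VQ marrow libraries was taken when it held at least 1000 UMIs (counted transcripts) and Jchain made up less than 5% of them. A cell of the wild-type marrow library was taken when Jchain made up at least 5% of its UMIs. The rule kept 204 of 245 cells in VQ marrow replicate 1 (83.3%), 73.4% of the 188 cells in VQ marrow replicate 2 and 106 of 163 in wild-type marrow (65.0%), together 448 of the 781 cells of the series.

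Every library was made from cells sorted as CD138+ B220-, on the C57/BL6 background the labels give, with droplet capture on the ddSEQ instrument and 3′ end counting. The wild-type library came from Wild-type bone marrow. The VQ libraries came from donor-derived cells in the bone marrow of recipients, labelled as multiple myeloma, with the transgene V{kappa}*MYC, a single conditional Nras allele (LSL Q61R/+) and IgG1-Cre. The transgene places MYC under kappa light chain control. LSL is a stop cassette that Cre removes, and IgG1-Cre acts in B cells that express the IgG1 heavy chain locus. No age, sex or animal number is given, and the wild-type cells are not described as transferred, so transfer, genotype and library cannot be told apart. Nothing in the labels says whether the VQ replicates came from separate animals, so their spread may be technical.

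The compared cells held 162471 UMIs other than Jchain in wild type, 1024229 in VQ replicate 1 and 426230 in VQ replicate 2, with medians of 1998.5, 4968.5 and 3062 UMIs per cell. No cell barcode was shared between libraries. The VQ replicates are labelled as separate samples and were counted as 2. Their counts differed by more than counting noise, with a chi-square of 1.59 per degree of freedom over 8961 genes, which does not show whether they came from separate animals. Levels below are UMIs per 1e6 of a library's TMM-scaled total without Jchain (CPM), printed in the order wild type, VQ replicate 1, VQ replicate 2. Folds set the summed VQ libraries against wild type, with a 95% counting interval that covers counting error only. A fold against a side with no UMI is a bound, set against a floor of 3 UMIs over that side (19.4 CPM in wild type, 2.10 CPM in VQ).

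Plasma cells are the antibody-secreting end stage of the B cell lineage. They normally stop dividing, silence much of the B cell programme and expand the endoplasmic reticulum (ER), where antibody chains enter, fold, pair and are checked. Myeloma is the cancer of this cell type, and MYC activity and RAS mutations are among its recurrent features.

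Jchain chose the cells, so its levels are a description. It was counted at 268120, 5810 and 5725 CPM. The median share of a cell's UMIs was 19.7% in the wild-type cells (5.51% to 41.3%), 0.500% in VQ replicate 1 (0% to 4.54%) and 0.537% in VQ replicate 2 (0% to 1.63%). Few cells lay near the line. Between 4% and 6% there were 5 cells in wild type, 3 in VQ replicate 1 and 2 in VQ replicate 2. The wild-type cells just outside stood at 4.98% and 4.61%, and those just inside at 5.51% and 5.64%.

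**Figure D1:**
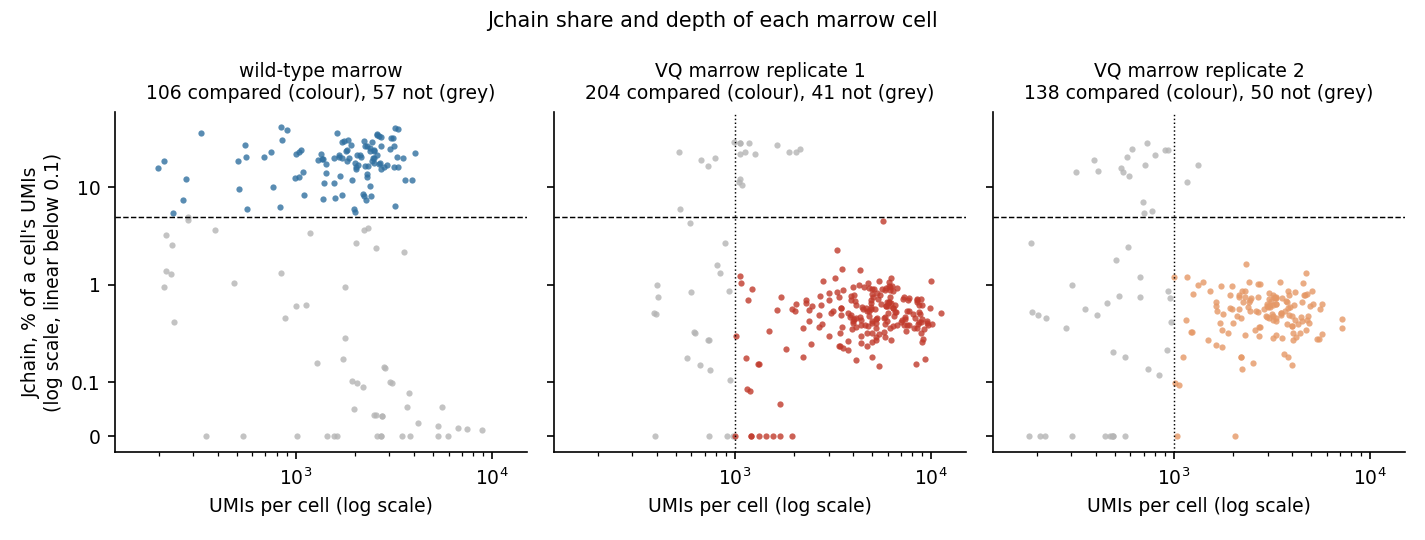
Each point is a cell of a marrow library, with its UMIs on the x axis (log scale) and the Jchain share of those UMIs on the y axis (log scale, linear below 0.1%). The dashed line is the 5% threshold, the dotted line the minimum of 1000 UMIs. Compared cells are coloured, and both VQ libraries also show a small grey group above 5%, 19 cells in replicate 1 and 18 in replicate 2.

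Plasma cell markers were checked on both sides. Of the 12 genes on the plasma cell list, Jchain aside, all 11 passed the filter on low counts. Myc is on the list but had 7 UMIs in wild type, so it did not mark the normal plasma cells here. By the edgeR test described below, 9 of them were lower in VQ (13.8% of all tested genes were) and 2, Myc and Fkbp11, were higher (18.9%). Xbp1, the transcription factor that drives ER expansion, stood at 7263, 4302 and 4852 CPM. Sdc1, which encodes the sorted CD138 antigen, stood at 1143, 734 and 666 CPM. Mzb1, an ER co-chaperone of antibody assembly, was abundant in wild type only, at 6269 CPM against 33.6 and 38.5. All 11 genes of the list were counted in both VQ libraries, 9 of them below their wild-type level.

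Across all genes, 7351 passed the filter on low counts and were tested with edgeR's quasi-likelihood test with Benjamini-Hochberg adjustment, called at an adjusted p under 0.05. The background is broad. 1391 genes were higher in VQ (18.9% of those tested) and 1017 were lower (13.8%), together 32.8%, and the median log2 fold change of all tested genes was 0.12. Of the genes called higher, 357 had no UMI in the wild-type cells. These passed the filter only through VQ, so their direction was fixed. Likewise, 7 genes called lower had no UMI in the VQ cells and passed only through wild type. The single wild-type library has no replicate, and the fit assumes that it varies like the VQ pair. DESeq2 called 227 genes higher and 325 lower and did not make 46 of the calls of named genes, and with the VQ libraries thinned to the wild-type depth edgeR called 0 (1538 of 4668 genes had an unadjusted p under 0.05, and DESeq2 was not run on the thinned libraries).

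Myc was higher in VQ. The gene, on chromosome 15 from 61985391 to 61990374 in GRCm38, encodes a transcription factor that drives growth and division. It stood at 45.2, 1302 and 1513 CPM (7, 1316 and 629 UMIs), 30.2-fold higher (14.6 to 75.2), with a log2 fold change of 4.95 ± 0.32 (SE) and an edgeR adjusted p of 8.15e-50. With each cell thinned to 500 UMIs, a Myc UMI was found in 1.05% of wild-type cells (1 of 95) and in 47.1% and 47.8% of VQ cells. Unthinned, the shares were 5.66%, 90.7% and 91.3%. The sources used here do not say whether transgene transcripts are counted under Myc. Nras, which the model mutates at its own locus, stood at 110, 303 and 337 CPM and rose 2.85-fold (1.76 to 4.94), an edgeR call (adjusted p = 1.98e-05) that DESeq2 did not make. The counts do not separate the mutant from the normal allele.

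Most tested genes of dividing cells rose. Of 41 tested genes of DNA replication 39 were higher and 0 lower, with a median log2 fold change of 3.31. Of 39 tested genes of mitosis 37 were higher and 0 lower, with a median of 4.26, beside 0.12 over all genes. Among all tested genes 18.9% were higher and 13.8% lower. A member that passed the filter only through its VQ level had to differ: 10 replication genes and 16 mitosis genes had no UMI in wild type, and the medians were 2.30 and 2.99 with 10 and 15 of these at their bound. The mitosis gene left over, Cdc25c, was near the floor in VQ too and was not called. With all cells and no rule the medians were 1.24 and 1.13, beside 0.03 over all genes. With DESeq2 the counts were 8 and 12 higher, with 0 lower in each list.

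Among replication genes, Rrm2, a subunit of the enzyme that makes deoxyribonucleotides, stood at 19.4, 514 and 366 CPM, 24.3-fold higher (8.28 to 118). Mcm2 and Mcm5, parts of the helicase that opens DNA, stood at 12.9, 227 and 274 CPM and at 6.46, 130 and 125 CPM. 2810417H13Rik, also known as Pclaf, a partner of the replication clamp outside the list, stood at 6.46, 185 and 212 CPM. With all cells and no rule the 2810417H13Rik call ended, at a log2 fold change of 0.20. In each of these genes both VQ libraries lay above the wild-type value, which rests on 1 to 3 UMIs.

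Among mitosis genes, Top2a, the enzyme that untangles chromosomes, on chromosome 11, stood at 6.46, 263 and 253 CPM, 40.3-fold higher (7.19 to 1596). That call also ended with all cells and no rule, at a log2 fold change of 0.43. Ccna2, a cyclin of S phase and mitosis, had no UMI in wild type and 330 and 351 CPM in VQ, at least 17.3-fold higher. Cdk1, the kinase of mitotic entry, had none in wild type and 172 and 108 CPM, at least 7.93-fold higher. Tuba1b, a tubulin, stood at 32.3, 707 and 534 CPM and Mad2l1, of the spindle checkpoint, at 6.46, 146 and 164. Cenpw, of the kinetochore and outside the list, stood at 6.46, 209 and 166 CPM. The division genes were thus near the floor in wild type and clearly counted in both VQ libraries. Together the mitosis list took 0.0942% of UMIs in wild type, 0.697% in VQ replicate 1 and 0.659% in VQ replicate 2, and the replication list 0.0856%, 0.508% and 0.506%.

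Of 17 tested genes among cell cycle brakes and p53 targets 8 were lower and 3 higher, with a median of -0.80. The share higher was close to the 18.9% of all tested genes, and 13.8% of those were lower. Trp53inp1, a p53-induced gene of autophagy and stress, stood at 2821, 116 and 81.8 CPM, 26.6-fold lower (22.1 to 32.3). Cdkn2c, an inhibitor of CDK4 and CDK6 needed for plasma cell arrest, stood at 83.9, 1.98 and 0 CPM, 59.9-fold lower (13.6 to 546). Gadd45b stood at 174, 25.7 and 28.9 CPM. Rbl1, a relative of the retinoblastoma protein, at 19.4, 80.2 and 64.9, Zmat3, a p53 target, at 25.8, 99.0 and 84.2, and Trp53 itself, at 64.6, 153 and 125, were higher by edgeR (adjusted p = 0.0185, 0.00812 and 0.0204). DESeq2 called none of these 3 and 3 of the 8 lower ones.

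Genes that build ribosomes rose as a group. All 48 nucleolar factors of ribosome biogenesis were tested, and 41 were higher and 0 lower, beside 18.9% and 13.8% of all tested genes. The median log2 fold change was 1.92, and no member was at 0 in wild type. Npm1 and Ncl, abundant nucleolar proteins, stood at 439, 2126 and 1809 CPM and at 220, 1097 and 1015 CPM, 4.63-fold (3.64 to 5.98) and 4.89-fold (3.48 to 7.09) higher. Gar1, part of the particle that modifies ribosomal RNA, stood at 19.4, 181 and 197 CPM. Wdr12 and Grwd1, assembly factors of the large subunit, stood at 6.46, 89.1 and 64.9 CPM and at 12.9, 95.0 and 123 CPM. DESeq2 called 8 of the 48 higher, without Wdr12 and Grwd1.

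The ribosomal proteins themselves shifted less per gene and more in mass. Of 76 tested, 43 were higher and 3 lower, beside 18.9% and 13.8% of all tested genes. Their median was 0.51, and they took 12.1% of UMIs in wild type against 18.3% and 17.4% in VQ. Rps2 stood at 994, 3880 and 3709 CPM, Rpl22l1, a paralogue of Rpl22, at 142, 498 and 500, and Rps28 at 587, 1632 and 1143. Rps24 stood at 6114, 4263 and 4428 CPM, Fau at 1588, 1295 and 912 and Rpl10 at 1014, 780 and 705, the 3 called lower by edgeR (adjusted p = 0.00238, 0.00945 and 0.0457) and not by DESeq2. Ribosomal protein genes have many near-identical pseudogenes, so single members are uncertain.

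Enzymes that supply nucleotides and one-carbon units moved in 1 direction, with 19 of 28 tested genes higher and 0 lower (median 1.36). Among all tested genes the shares were 18.9% and 13.8%. Impdh2, which commits purines to guanine nucleotides, stood at 25.8, 241 and 272 CPM, 9.69-fold higher (3.75 to 35.8). Shmt1, of one-carbon transfer, had no UMI in wild type and 136 and 120 CPM in VQ. It passed the filter only through VQ, so its direction was fixed. Dctpp1, which clears unusual nucleotides and is outside the list, stood at 6.46, 229 and 253 CPM. DESeq2 called 5 of the 28 higher.

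Of 21 tested glycolysis and lactate genes 9 were higher and 2 lower, beside 18.9% and 13.8% of all tested genes. The share lower was thus smaller than over all tested genes. The median was 0.95, and 0.32 with all cells and no rule. Ldha, which makes lactate, stood at 103, 819 and 811 CPM, 7.91-fold higher (4.85 to 13.9). Slc16a1, a lactate transporter, had no UMI in wild type and 189 and 238 CPM in VQ, at least 10.5-fold higher. Slc16a1 and Eno3, 2 of the 9, passed the filter only through VQ, so their direction was fixed. Aldoa, a glycolytic aldolase, stood at 639, 263 and 238 CPM, 2.50-fold lower (1.98 to 3.13), and Taldo1, of the pentose phosphate pathway, at 291, 183 and 164. The Taldo1 call ended under 4 of the alternatives, DESeq2 among them, and DESeq2 called 2 genes of the list higher and 1 lower.

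Output genes of RAS and MAPK signalling were 7 of 18 higher and 2 lower, with a median of 0.70. Over all tested genes 18.9% were higher and 13.8% lower. Etv4, Etv5 and Spry4, 3 of the 7, had no UMI in wild type and passed the filter only through VQ, and with them at their bound the median was 0.53. With all cells and no rule it was 0.33. The rises included feedback inhibitors of the pathway. Dusp6, a phosphatase of ERK, stood at 12.9, 156 and 120 CPM, 11.3-fold higher (3.09 to 93.9), and Spred1, a RAS inhibitor, at 6.46, 56.4 and 45.7. Phlda1, an ERK-responsive gene, stood at 19.4, 262 and 354 CPM, 14.9-fold higher (5.07 to 72.6). Rasgrp3, an exchange factor that activates RAS downstream of the B cell receptor, stood at 284, 0 and 2.41 CPM, 405-fold lower (69.0 to 16362). Map2k1, the ERK kinase MEK1, stood at 213, 57.4 and 103 CPM. DESeq2 called 2 of the 18 higher and 1 lower, and did not call Dusp6, Spred1 or Map2k1.

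**Figure D2:**
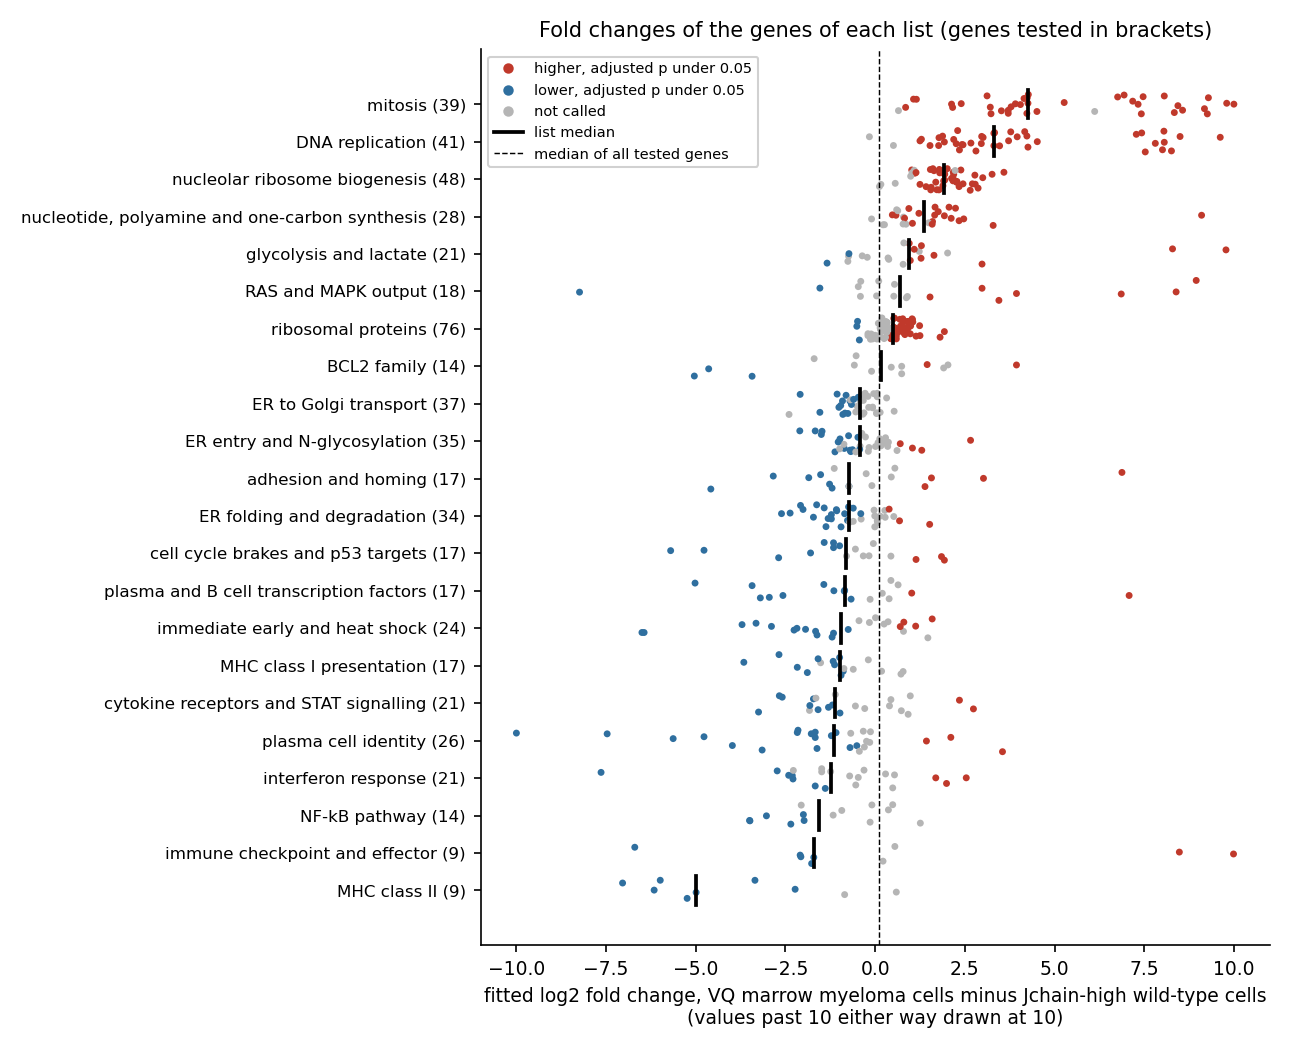
Each point is a tested gene of a list, placed by its fitted log2 fold change on the x axis (VQ minus wild type, values past 10 drawn at 10) and coloured where its edgeR adjusted p was under 0.05. Black bars are list medians and the dashed line is the median of all tested genes, 0.12. Mitosis and DNA replication sit farthest to the right with medians of 4.26 and 3.31, and MHC class II farthest to the left with -4.99.

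Plasma cell identity genes were lower more often than higher. Of 26 tested, 3 were higher and 16 lower, with a median log2 fold change of -1.16, beside 18.9%, 13.8% and 0.12 over all genes. DESeq2 called 2 higher and 12 lower. The largest fall belonged to Slpi, a secreted protease inhibitor, on chromosome 2 from 164354070 to 164389095. It stood at 8335, 3.96 and 0 CPM (1291, 4 and 0 UMIs), 2972-fold lower (1158 to 10924), with a log2 fold change of -11.43 ± 0.25 (SE). After thinning to 500 UMIs, 70.5% of wild-type cells and 0% of cells in both VQ libraries had a Slpi UMI, where a count of 0 cells allows up to 1.79% and 2.64% by the exact 95% interval.

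Mzb1 was 179-fold lower (135 to 243), with a log2 fold change of -7.47 ± 0.19 and an edgeR adjusted p of 3.29e-295. A Mzb1 UMI was found in 90.5% of thinned wild-type cells and in 1.47% and 1.45% of thinned VQ cells. Hsd11b1, a steroid-activating enzyme, stood at 187, 1.98 and 7.22 CPM, 53.4-fold lower (20.4 to 177). Tnfrsf17, the survival receptor BCMA, stood at 568, 53.4 and 84.2 CPM, 9.10-fold lower (6.70 to 12.4). Slamf7, another surface antigen used as a target in myeloma, stood at 665, 316 and 305 CPM, and Cd28 at 291, 66.3 and 60.1. The Slamf7 call ended with all cells and no rule, at a log2 fold change of -0.30. Sdc1 was 1.60-fold lower (1.36 to 1.88), a call of edgeR (adjusted p = 6.29e-04) that DESeq2 did not make and that ended when all cells were used.

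Prg2, a granule protein gene best known from eosinophils, stood at 2505 CPM in wild type, 258 in VQ replicate 1 and 2.41 in VQ replicate 2. DESeq2 did not call Prg2, and the VQ replicates disagreed: the 261 UMIs of replicate 1 lay in 6 of its 204 cells. The members higher in VQ were Ly6c2, a surface protein of plasma cells and monocytes, at 1691, 6539 and 8065 CPM, its neighbour Ly6c1 at 6.46, 55.4 and 118, and Fkbp11, an ER prolyl isomerase, at 265, 645 and 799. Ly6c1 and Ly6c2 are near-identical copies, so the counting could split them.

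Transcription factors of the plasma and B cell programme were 2 of 17 higher and 10 lower, with a median of -0.85. Over all tested genes 18.9% were higher and 13.8% lower. Prdm1, the repressor that ends the B cell programme, stood at 471, 67.3 and 48.1 CPM, 7.64-fold lower (5.52 to 10.5). Irf4, on which plasma cell survival depends, stood at 730, 385 and 423 CPM, 1.84-fold lower (1.49 to 2.26), and Xbp1 was 1.63-fold lower (1.53 to 1.73). DESeq2 called Xbp1 but not Irf4. With all cells and no rule the Irf4 call ended and the log2 fold change of Xbp1 was 0.03. Ikzf1 and Ikzf3, targets of the lenalidomide class of drugs, stood at 297, 104 and 120 CPM and at 239, 45.5 and 28.9 CPM. Pou2af1, an octamer coactivator of antibody genes, stood at 2014, 791 and 1046 CPM, 2.33-fold lower (2.05 to 2.64), a call that ended with all cells and no rule at a log2 fold change of -0.37. DESeq2 called 6 of the 17 lower and did not call Ikzf1. Irf8, of B and myeloid cells, stood at 213, 5.94 and 7.22 CPM. Klf2, of quiescence and homing, at 103, 190 and 241, and Bach2, a repressor of Prdm1, at 0, 35.6 and 24.1, were the 2 called higher, and DESeq2 made neither call. Bach2 passed the filter only through VQ, which fixed its direction, and was at least 1.67-fold higher.

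Secretory pathway genes did not move as a block. Of 34 tested genes of ER folding and degradation 3 were higher and 19 lower (median -0.73), beside 18.9% and 13.8% of all tested genes. The median over all tested genes was 0.12. Of 35 genes of ER entry and glycosylation 4 were higher and 14 lower (median -0.42), and of 37 genes of ER to Golgi transport 0 were higher and 14 lower (median -0.42). DESeq2 called 12, 5 and 1 of them lower and 0, 3 and 0 higher. Hspa5, the ER chaperone BiP, stood at 4287, 4328 and 4183 CPM, a ratio of 1.00 (0.922 to 1.08). Hsp90b1, the ER chaperone of the HSP90 family, stood at 6837, 3544 and 3529 CPM, 1.93-fold lower (1.81 to 2.06). Several genes that retire misfolded proteins were lower. Herpud1, a scaffold of ER-associated degradation, stood at 3086, 499 and 515 CPM, 6.13-fold lower (5.45 to 6.89), Edem2 at 1162, 210 and 245, and Derl3 at 1904, 402 and 464. Edem3 and Sel1l, of the same task, were not called.

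The disulfide isomerases did not share a direction. Txndc5 stood at 7489, 2032 and 2338 CPM and Pdia4 at 1866, 432 and 455, 3.53-fold and 4.25-fold lower. Pdia6 stood at 1369, 2067 and 2326 CPM, 1.57-fold higher (1.36 to 1.81), and Ero1l, the oxidase that recharges them, at 64.6, 192 and 176. Edem1, a lectin-like degradation factor, stood at 3286, 4109 and 4489 CPM. DESeq2 called none of these 3 rises. The signal sequence receptor, a complex beside the translocon, was split among its subunits: Ssr2 stood at 659, 3952 and 4354 CPM, 6.18-fold higher (5.08 to 7.59), Ssr1 at 433, 894 and 883, Ssr3 at 1375, 1622 and 1956 (edgeR adjusted p = 0.0711), and Ssr4 at 4842, 1123 and 1128, 4.31-fold lower (3.94 to 4.70). Signal peptidase subunits Spcs1 and Spcs2 stood at 1588, 535 and 457 CPM and at 2666, 878 and 1018 CPM.

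The ER lists depended on which cells were compared. With all cells and no rule, their medians were -0.06 for folding and degradation, 0.02 for entry and 0.10 for ER to Golgi transport, beside 0.03 over all genes. The wild-type cells left out by the rule held B cell precursor transcripts (494 UMIs of Dntt in 57 cells), so that setting does not compare plasma cells alone.

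A DNA element ties several of these ER genes together. The ER stress response element, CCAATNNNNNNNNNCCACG (N is any base), is the site at which ATF6 and NF-Y act. It was searched on both strands in the 250 bases before the start sites in RefSeq (GRCm38.p6). Promoters were found for 28 of the 36 genes of folding and degradation, and 7 of these held the element (25.0%), against 13 of 5739 tested genes with a promoter (0.227%) and 35 of 27025 genes in all (0.130%). The stretches around the element are shown for its 4 members that were called, with the element in capitals, to set a shared sequence beside unlike changes. Hsp90b1 lies at chr10:86705618-86705676 on the minus strand, Dnajc3 at chr14:118937807-118937865 on the plus strand, Syvn1 at chr19:6046512-6046570 on the plus strand and Pdia6 at chr12:17266471-17266529 on the plus strand.
Hsp90b1: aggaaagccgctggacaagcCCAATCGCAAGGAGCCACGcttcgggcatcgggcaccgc
Dnajc3: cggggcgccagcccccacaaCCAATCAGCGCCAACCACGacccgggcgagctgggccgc
Syvn1: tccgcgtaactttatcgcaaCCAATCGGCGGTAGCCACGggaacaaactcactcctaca
Pdia6: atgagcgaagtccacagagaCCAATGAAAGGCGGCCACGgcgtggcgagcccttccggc

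Genes with the element fell, rose or stayed uncalled. Hsp90b1, whose window holds 2 copies, Dnajc3, a co-chaperone that restrains the PERK branch, at 1711, 934 and 1075 CPM, and Syvn1, the ubiquitin ligase HRD1, at 413, 184 and 120 CPM, were lower. Pdia6 was higher. Hspa5, Calr (2757, 3158 and 3565 CPM, edgeR adjusted p = 0.141) and Canx (684, 779 and 647 CPM, edgeR adjusted p = 0.814) were not called. The E-box CACGTG, a palindrome to which MYC and other factors can bind, was held by 2 of 42 nucleolar genes with a promoter (4.76%), Nop2 and Utp18, against 619 of 5739 tested genes (10.8%). A match is a description of letters in this window only.

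MHC class II genes were lower in VQ. Of 9 tested, 0 were higher and 7 lower, with a median log2 fold change of -4.99, beside 18.9%, 13.8% and 0.12 over all genes. Cd74, the invariant chain, stood at 3092, 91.0 and 108 CPM, 32.2-fold lower (26.6 to 39.2). H2-Ab1 and H2-Aa, which form the I-A molecule, stood at 1020, 21.8 and 2.41 CPM and at 465, 7.92 and 2.41 CPM, and H2-Ob, of the peptide-loading modulator, at 123, 0.990 and 0. Ciita, the class II transactivator, had no UMI in any of the 3 sets. Only 7 of the 106 wild-type cells, with 6217 UMIs other than Jchain, held no UMI of H2-Aa, H2-Ab1 or Cd74. B cell markers moved along: Ms4a1 (CD20) had 15 UMIs in wild type and none in VQ, Cd79a 6 and none, and Cd79b stood at 1072, 461 and 380 CPM. Ms4a1 passed the filter only through wild type, so its direction was fixed, and Cd79a was not tested. The 8 B cell markers took 0.119%, 0.0458% and 0.0373% of UMIs, with Pax5, Cd22 and Fcer2a at 0 in wild type, and their part in the class II difference was not tested.

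MHC class I presentation followed, with 0 of 17 tested genes higher and 10 lower (median -0.99), beside 18.9% and 13.8% of all tested genes. B2m, the light chain of every class I molecule, stood at 30046, 2322 and 2422 CPM, 12.8-fold lower (12.2 to 13.4). H2-K1, a classical heavy chain, stood at 5462, 1168 and 1258 CPM, and Tapbp, the peptide-loading bridge tapasin, at 923, 137 and 156. The list took 3.93% of UMIs in wild type and 0.648% and 0.623% in VQ. DESeq2 called 4 of the 17 lower.

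**Figure D3:**
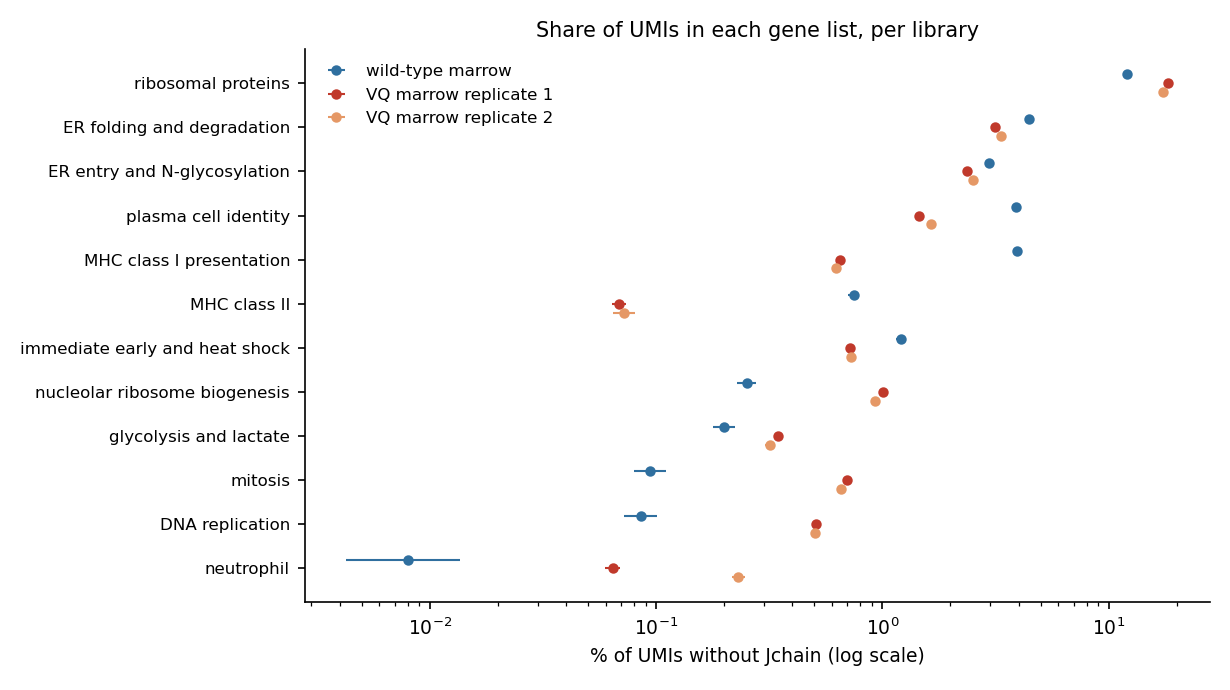
The x axis (log scale) gives the percent of UMIs other than Jchain that each list took, for the compared cells of each library, with exact 95% intervals that cover counting error only. The VQ replicates lie close to each other in most lists, for example at 0.648% and 0.623% for MHC class I against 3.93% in wild type, and apart for neutrophil markers, at 0.0645% and 0.231%.

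Interferon response genes were 3 of 21 higher and 7 lower, with a median of -1.24. The share higher was near the 18.9% of all tested genes, and 13.8% of those were lower. Ly6a, the stem cell antigen Sca-1 that interferon induces, stood at 4506, 22.8 and 21.6 CPM, 201-fold lower (141 to 296). Zbp1, a nucleic acid sensor, stood at 187, 28.7 and 26.5 CPM. Ifitm3, a membrane restriction factor, stood at 45.2, 244 and 291 CPM, 5.71-fold higher (2.74 to 14.3), and the guanylate-binding proteins Gbp3 and Gbp7 were also called higher. DESeq2 called 1 member higher and 5 lower, and neither Gbp3 nor Gbp7.

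Immediate early and heat shock genes were 4 of 24 higher and 13 lower, with a median of -0.96. The share higher was near the 18.9% of all tested genes, and 13.8% of those were lower. Fos stood at 2640, 511 and 601 CPM, 4.92-fold lower (4.35 to 5.55), Fosb at 504, 32.7 and 50.5, Egr1 at 187, 13.9 and 28.9 and Junb at 542, 78.2 and 62.5. The stress-inducible Hspa1a and Hspa1b, near-identical copies, stood at 336, 4.95 and 0 CPM and at 691, 6.93 and 9.62 CPM. The 4 called higher by edgeR were the mitochondrial chaperones Hspd1 and Hspe1 and the cytosolic chaperones Hsp90ab1 and Hspa8, the last at 704, 1181 and 1097 CPM. None of these calls held under every alternative: DESeq2 called 1 of the 4, Hsp90ab1, which was lost, as was Hspa8, under a preset coefficient of variation and with all cells. DESeq2 called 10 of the list lower.

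Among survival genes 2 of 14 tested BCL2 family and PIM genes were higher and 3 lower (median 0.17). Over all tested genes 18.9% were higher and 13.8% lower, with a median of 0.12, so the list as a whole did not stand apart. Bcl2 stood at 168, 5.94 and 2.41 CPM, 34.2-fold lower (14.5 to 93.3), and the survival kinases Pim2 and Pim1 at 284, 12.9 and 7.22 CPM and at 297, 26.7 and 28.9 CPM. Mcl1, the survival factor on which plasma cells rely, stood at 1130, 1074 and 1025 CPM, a ratio of 1.07 (0.907 to 1.25, wild type over VQ) with an edgeR adjusted p of 0.681. Bak1, a pore former of cell death, stood at 6.46, 88.1 and 127 CPM, and Pmaip1, the death activator NOXA, at 58.1, 149 and 176, both called by edgeR only.

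NF-kB pathway genes were 0 of 14 higher and 6 lower (median -1.57), beside 18.9% and 13.8% of all tested genes. Nfkbia, an inhibitor and target of the pathway, stood at 1117, 147 and 118 CPM, 8.05-fold lower (6.52 to 9.92), and Nfkb2 and Relb, of the alternative branch, at 129 CPM in wild type and a VQ mean of 11.5 ± 0.808 (SD), and at 58.1, 4.95 and 4.81 CPM. Cytokine receptor and STAT genes were 2 of 21 higher, a smaller share than over all tested genes, and 9 lower (median -1.11). Socs2, a feedback inhibitor of STAT5, stood at 123, 638 and 611 CPM, 5.14-fold higher (3.27 to 8.58), and Il5ra, a receptor chain of B-1 cells and eosinophils, at 12.9, 89.1 and 84.2. Il2rg, the shared gamma chain, stood at 465, 69.3 and 79.4 CPM. DESeq2 called 3 NF-kB genes lower, and 1 cytokine receptor gene higher and 2 lower, without Il5ra.

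Adhesion and homing genes were 4 of 17 higher and 7 lower (median -0.73). The share higher was near the 18.9% of all tested genes, and 13.8% of those were lower. Of the 4, Itga6 had no UMI in wild type and passed the filter only through VQ. Epcam, an epithelial adhesion protein, stood at 90.4, 736 and 729 CPM, 8.12-fold higher (4.82 to 14.9). Cd24a stood at 736, 1835 and 2018 CPM and Itgb1, the beta chain of VLA-4, at 96.8, 274 and 308. Itgb7, of gut homing, stood at 155, 7.92 and 2.41 CPM, and Itgal with Itgb2, which form LFA-1, at 613, 169 and 171 CPM and at 220, 33.6 and 24.1 CPM. Cxcr4, the receptor that holds plasma cells in marrow, stood at 181, 71.2 and 81.8 CPM, 2.43-fold lower (1.54 to 3.72), a call DESeq2 did not make. Nor did it call Itgb1, and it called 2 of the list higher and 4 lower.

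Checkpoint and effector genes were few, with 2 of 9 tested higher and 5 lower (median -1.71), beside 18.9% and 13.8% of all tested genes. Both called higher, Arg1 and Cd276, passed the filter only through VQ, so their direction was fixed. Arg1, which depletes arginine and is best known from myeloid cells, had no UMI in wild type and 260 and 214 CPM in VQ, at least 12.7-fold higher. It was spread over cells, with a UMI in 42.6% and 34.1% of VQ cells. Cd276 (B7-H3) had none in wild type and 74.2 and 103 CPM, a call DESeq2 did not make. DESeq2 called 1 of the list higher and 3 lower. Pdcd1lg2 (PD-L2) stood at 96.8, 0.990 and 0 CPM and 4632428N05Rik (VISTA) at 342, 76.2 and 91.4. Btla, an inhibitory receptor outside the list, stood at 142, 0 and 2.41 CPM.

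Some of the largest changes fell outside these pathways. Tex101, a Ly6-family protein known from germ cells, on chromosome 7 from 24668007 to 24676675, had no UMI in wild type and 701 and 724 CPM in VQ, at least 36.5-fold higher. It had a UMI in 86.3% and 76.8% of VQ cells, and after thinning to 500 UMIs in 21.1% and 31.2%. Crygs, a lens crystallin, had none in wild type and 320 CPM in both VQ libraries, at least 16.5-fold higher, and Khdc3, an oocyte and embryo protein, none against 266 and 293 CPM. Crygs and Khdc3 were picked after their values were seen. Like Tex101, they passed the filter only through VQ, so their direction was fixed. Lmf2 and Ccdc34 stood at 6.46, 183 and 154 CPM and at 6.46 CPM against a VQ mean of 153 ± 21.8 (SD). Mfge8, a secreted bridge for dying cells, stood at 6.46, 146 and 152 CPM.

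Several other large falls, beside those of Slpi, Mzb1, Rasgrp3, Ly6a and H2-Ob, were of genes outside these lists. Ly6d, a marker of B-lineage commitment, stood at 1478, 2.97 and 0 CPM, 703-fold lower (238 to 3434). Oosp1, an oocyte-secreted family member, stood at 523, 2.97 and 0 CPM, Chst1, a sulfotransferase, at 497, 3.96 and 0, Spon1, an extracellular matrix protein, at 362, 2.97 and 2.41, Sdc4, a syndecan, at 200, 0 and 2.41, and Zc3h12d, an RNase that limits inflammation, at 110, 0.990 and 0. St8sia6, a sialyltransferase picked after its values were seen, stood at 232 CPM in wild type with no UMI in VQ, at least 110-fold lower. It passed the filter only through wild type, so its direction was fixed.

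Markers of other cell types were followed in the compared cells. All 5 tested neutrophil markers were higher in VQ, and the 8 measured ones took 0.00800% of UMIs in wild type, 0.0645% in VQ replicate 1 and 0.231% in VQ replicate 2. Ngp, a neutrophil granule protein that ranks among the largest rises, stood at 6.46, 93.0 and 330 CPM, but all of it lay in 2 cells of each VQ library. S100a8 stood at 12.9, 118 and 544 CPM, in 5 and 3 cells. When cells with markers of other types were left out, 1170 genes were called higher and 908 lower. Ngp and S100a8 then no longer passed the filter, which the choice of cells fixed, as both are among those markers. Monocyte and macrophage markers took 0.00677%, 0.0181% and 0.0143% of UMIs, with Adgre1, C1qa, C1qb, C1qc and Fcgr1 at 0 in all 3 libraries. Both tested members, Cd68 (64.6, 142 and 118 CPM) and Lyz2 (0, 29.7 and 21.6 CPM), were called higher in VQ. Lyz2 passed the filter only through VQ, which fixed its direction, and the Cd68 call ended under 8 alternatives, DESeq2 among them. At least 2 UMIs of this marker list lay in 2.83%, 19.6% and 10.1% of cells, not thinned to equal depth. After thinning to 500 UMIs, a Cd68 UMI was found in 4.21%, 7.35% and 3.62% of cells. B cell precursor markers went the other way, with at least 2 UMIs in 6.60%, 0% and 0% of cells, not thinned. Vpreb3, the 1 tested member, was called lower in VQ, at a log2 fold change of -6.36. For dendritic cell markers the shares were 14.2%, 29.9% and 16.7%, and Bst2, the 1 tested member, was not called.

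The VQ libraries also hold cells on the wild-type side of the Jchain line, which the comparison left out. They number 19 and 18, with 17081 and 10597 UMIs other than Jchain and medians of 1064 and 699.5 UMIs per cell. Their Jchain share had medians of 22.8% and 16.3%. The next levels are UMIs per 1e6 without Jchain and without TMM scaling, so they differ a little from the CPM above. As the rule's own variable chose these cells, these levels are described without a test. A fit of the VQ myeloma cells against them was added after seeing the data. It gave the list medians and log2 fold changes further below, and its calls are under the closing section.

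Several genes named for their fall lay nearer the wild-type level in these cells. Slpi stood at 3630 and 2642, against 7946 in the wild-type cells and 3.91 and 0 in the VQ myeloma cells. Mzb1 stood at 2635 and 3492, against 5976 and then 33.2 and 37.5. B2m stood at 18910 and 25101, against 28645 and then 2291 and 2363. Herpud1, Trp53inp1 and Tnfrsf17 stood at 2225 and 2925, at 2049 and 2548 and at 878 and 849. Myc had 4 and 0 UMIs there, Tex101 0 and 1, Top2a 0 and 0, and Crygs 0 and 0. Fos was 2693 and 1321 there, against 504 and 587 in the VQ myeloma cells of the same libraries.

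Some wild-type features were not seen in those cells. Hspa1a and Hspa1b had no UMI in either set, while the wild-type cells held 320 and 659. Spon1 had none, against 345 in wild type. At 17081 and 10597 UMIs, a count of 0 allows up to 216 and 348 by the exact 95% interval, so only the Hspa1b level of wild type lies above both limits. Hspa5 was 2166 and 1699 there, against 4087 in wild type and 4271 and 4080 in VQ myeloma cells, so for this chaperone the Jchain-high VQ cells stood below both sides of the comparison. The ER list medians of VQ myeloma cells against these cells were 0.14, 0.24 and 0.25 for folding, entry and ER to Golgi transport, beside 0.72 over all genes. Those of plasma cell identity and of immediate early and heat shock genes were 0.10 and 0.04, and those of mitosis and DNA replication 3.15 and 2.24. Hsp90b1 and the surface genes Sdc1 and Slamf7, lower against wild type, had log2 fold changes of 1.16, 0.10 and 0.97 against these cells. Only that of Hsp90b1 was called (edgeR adjusted p = 0.0176, against 0.907 and 0.369).

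**Figure D4:**
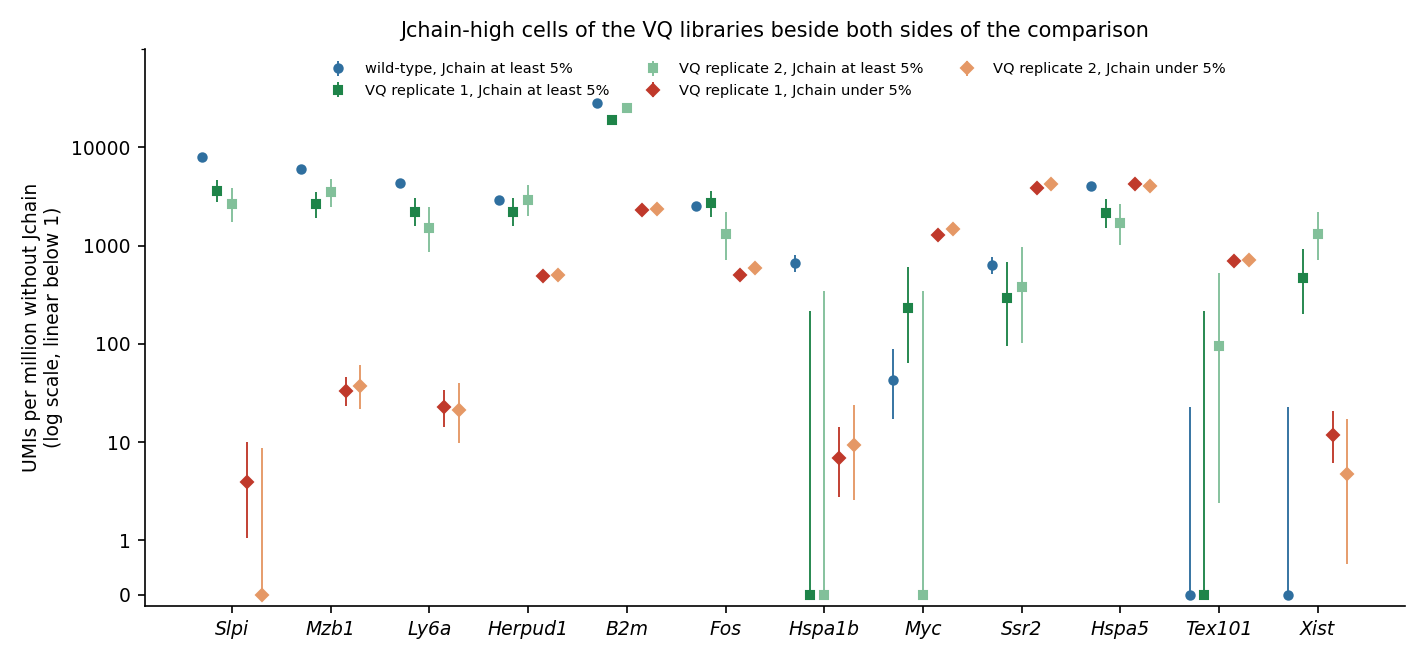
Levels of 12 genes in UMIs per 1e6 without Jchain (y axis, log scale, linear below 1) in 5 sets of cells, with exact 95% counting intervals. For Slpi, Mzb1, Ly6a, Herpud1 and B2m, Jchain-high cells of the VQ libraries (green squares) lie nearer the wild-type cells (blue) than VQ myeloma cells do. Slpi, at 3630 and 2642 against 7946, stays below wild type. The Jchain-high VQ cells hold Xist, which neither wild-type nor VQ myeloma cells do at a like level.

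Sex-linked transcripts separated the libraries. Ddx3y, Eif2s3y, Uty and Kdm5d, on the Y chromosome, had 35, 19, 6 and 3 UMIs in the wild-type cells and none in the VQ myeloma cells or in the Jchain-high VQ cells. Xist, the RNA of the inactive X chromosome, had none in wild type, 12 and 2 UMIs in the VQ myeloma cells, and 8 and 14 in the far fewer Jchain-high VQ cells. The labels give no sex, and sex and genotype cannot be told apart in the comparison.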

How the data were processed

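The authors' deposited tables hold raw UMI counts per gene (24421 columns) and cell; per the labels' protocols libraries were made on the ddSEQ with the SureCell 3′ kit, and per the submitters' processing notes the build was mm10. No immunoglobulin heavy or light chain gene and no mitochondrially encoded gene is among the columns. Aligner and counter are not given in the sources used here. Cells were chosen by the rule in the text, counts were summed per library, Jchain was removed, and the sums were fitted with edgeR 4.0.16 in R 4.3.3 (TMM, filterByExpr, quasi-likelihood test, Benjamini-Hochberg adjustment over 7351 genes). The fit had 1 residual degree of freedom, from the VQ pair, and a common coefficient of variation of 0.0962. The SE is the log2 fold change over the square root of F. DESeq2 1.42.0 and the settings under the closing section were alternatives. The script was tested on simulated data. No doublet caller was run. Cells were not treated as replicates. Shares of cells and of UMIs have exact Clopper-Pearson 95% intervals.

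Named genes were 11 fixed genes, the 12 largest called changes each way with at least 100 CPM in the higher group, up to 3 per list and direction, and a few picked after their values were seen, mainly markers, chaperones and transcription factors. The members, the 22 gene lists and these rules were chosen with earlier results of these data known. Positions are from GENCODE vM21 (GRCm38), which held 166 of the 168 named genes. The values of 1 gene are not reported here.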

Additional observations from a re-analysis of the deposited data

Results flagged for a closer look

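Xist appeared in cells that the comparison did not use. In the VQ marrow cells with Jchain at 5% or more it stood at 468 (UMIs per 1e6 without Jchain) in replicate 1 (8 UMIs) and at 1321 in replicate 2 (14 UMIs). The wild-type cells of the comparison held none, and the VQ myeloma cells of the same libraries stood at 11.7 and 4.69. It was singled out because the signal lies in cells outside the comparison and above the wild-type level.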

How the results depend on the processing

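The 1391 genes called higher and 1017 called lower stayed within 1.5 times of those counts under DESeq2 size factors, library totals, Jchain in the totals, a preset coefficient of variation, Jchain thresholds of 2% and 10%, other UMI minimums, all cells without the rule and cells with other markers left out. Without the low-count filter the genes at least 2-fold apart (1947 higher and 1385 lower) were 5170 and 2289, and leaving out a VQ replicate gave 1985 to 1989 higher and 1393 to 1450 lower, with no test. DESeq2 called 227 and 325, among them 26 and 0 ribosomal protein genes. Libraries thinned to the wild-type depth gave 0 and 0 calls (1538 genes at an unadjusted p under 0.05) and 1157 genes at least 2-fold higher. The 7 wild-type cells without a UMI of H2-Aa, H2-Ab1 or Cd74 gave 220 and 19 calls. They gave 4925 and 567 genes at least 2-fold apart, with a median of all genes of 6.90. Leaving out cells with cycle genes left 38 wild-type and 3 VQ cells, 58 tested genes, 0 and 1 calls (11 at an unadjusted p under 0.05) and 12 and 18 genes at least 2-fold apart. VQ myeloma cells against Jchain-high cells of the same libraries, a comparison added after seeing the data, gave 145 and 87 calls, 545 genes at least 2-fold lower and a median of all genes of 0.72. The cause of these shifts was not tested, beyond the fewer cells and genes named.

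Named genes that changed direction are given as log2 fold changes. Those that edgeR called in the new direction were Rps24 and Hsp90b1 with the 7 cells, Hsp90b1 against Jchain-high VQ cells, and Lyz2, S100a8 and S100a9 with all cells. The others were not called, so their change of sign does not show a reversal. The values with the 7 cells stand beside a median of all genes of 6.90. With the 7 wild-type cells chosen for having no UMI of H2-Aa, H2-Ab1 or Cd74, which fixes the direction of Cd74, they were Sdc1 1.88, Ptprc 0.67, Irf4 1.08, Xbp1 0.19, Pou2af1 1.26, Spcs2 0.09, Pdia4 0.22, Golgb1 7.13, Arfgap3 8.04, Aldoa 0.99, H2-K1 0.17, Pim1 6.73, Itgb2 6.89, Fgl2 6.64, Rps24 0.78, Fau 0.68, Rpl10 0.10, Hsp90b1 1.16, Cd74 8.55, Egr1 6.21, Derl3 1.76, Txndc5 0.30, Ikzf1 0.79, Ikzf3 7.27, Cxcr4 8.18. Against Jchain-high cells of the same libraries they were Sdc1 0.10, Copa 0.21, Arfgap3 0.35, Aldoa 0.08, Taldo1 2.70, Map2k1 1.54, Rbl1 -0.86, Hsp90b1 1.16, Slamf7 0.97. With all cells and no rule they were Xbp1 0.03, Ngp -0.38, Bach2 -0.87, Trp53 -0.52, Lyz2 -1.95, S100a8 -1.31, S100a9 -0.87. With cycle gene cells left out Junb was 0.95. No paired analysis was possible because there is a single wild-type library. The wild-type depth of 162471 UMIs limits folds of genes near its floor of 19.4 CPM.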
